A study of Mus musculus with 61 samples.

Results

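Del(CBS1-2) stembryos were compared with wild-type stembryos at 96 h and 120 h after aggregation, across all genes of the transcriptome and with attention to genes outside the HoxD cluster. A stembryo, also called a gastruloid, is an aggregate of mouse embryonic stem cells that receives a pulse of a Wnt agonist and then elongates along a head-to-tail axis. The Del(CBS1-2) line carries homozygous deletions of the first and second CTCF-binding sites of HoxD, and its second deletion was made by CRISPR in cells of the Del(CBS1) line, which lacks only the first site. By the methods of the study the mutant lines compared here were made from wild-type EmbryoMax 129/SVEV embryonic stem cells, each mutant line is a clone, and each library holds a pool of stembryos. Stembryos at 96 h were collected without selection, whereas at 120 h only elongating ones were taken. The comparison was formed by 4 libraries of Del(CBS1-2), 2 per stage, and 6 of wild type, 3 per stage, out of 61 libraries in the series. The libraries of Del(CBS1) and of Del(CBS2), which lacks the second site alone, 2 per genotype and stage, served as the closest mutants. Of 55052 genes in the tables, 17148 reached a mean of at least 1 FPKM, that is, reads of a transcript divided by its length and by the mapped reads of the library, in at least 1 group and were tested. Of these, 17138 lay outside the HoxD cluster.

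CTCF is a DNA-binding protein that halts the cohesin ring and thereby shapes loops of chromatin, and in HoxD its sites separate early from late Hox genes. Naive pluripotency genes such as Dppa5a, Zfp42, Nanog and Pou5f1 are active in embryonic stem cells and are switched off as stembryos differentiate. Imprinted genes are transcribed from 1 parental copy under the control of DNA methylation. H19 and Igf2, the classic pair, share enhancers and a methylated control region that CTCF binds on the maternal copy. Stembryos made by this protocol consist mainly of presomitic and somitic mesoderm and neural tissue, with smaller populations of gut-like endoderm and endothelium.

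One control stood apart at both stages. Of 9734 genes with a mean above 5 FPKM, 392 and 351 differed more than 2-fold between wild-type replicate 3 and replicates 1 and 2 at 96 h, and 336 and 331 at 120 h, against 76 and 84 between replicates 1 and 2. Replicate 3 differed from the 2 Del(CBS1-5) libraries, a line of another origin, at 180 and 174 genes at 96 h and at 189 and 155 at 120 h. Del(CBS1-2) libraries differed from wild-type replicates 1 and 2 at 132 to 187 genes. The wild-type libraries outside the comparison lay further off. Over both stages replicate 4 differed from replicates 1 to 3 at 1421 to 1552 of these genes, and the time course at 1329 to 1789. The labels do not say whether replicate 3 came from another experiment or another wild-type line, so its part in the values with 3 controls cannot be told apart. The main comparisons are therefore given with all 3 controls and again without replicate 3, a choice made after the data had been seen. Values of single genes are with 3 controls unless stated, and such genes need not have passed without replicate 3. The markers of stembryo tissue were present in all 10 libraries, with T, a primitive streak and tail-bud factor, at 25.1 to 122 FPKM, the posterior factor Cdx2 at 49.7 to 123 FPKM and the presomitic mesoderm factor Tbx6 at 13.5 to 195 FPKM. The sequencing depth read from the steps of low FPKM values was at least 23.8 M and at most 39 M fragments per library.

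At 96 h, 413 of 17148 genes (2.41%) passed an adjusted p of 0.05 in the limma fit, 222 higher and 191 lower in Del(CBS1-2). At 120 h, 307 genes (1.79%) passed, 137 higher and 170 lower. Without replicate 3 these numbers were 579 (3.38%) and 348 (2.03%), and 309 and 214 genes were called both with and without it. For the mean of both stages 1131 genes (6.6%) passed, 426 higher and 705 lower, against 715 (4.17%) without replicate 3, of which 510 were shared. The share of higher genes moved with the scaling. For the mean it was 37.7% as deposited, 47.7% after upper-quartile scaling, 53.6% after median-ratio scaling and 28.3% after leaving out mitochondrial transcripts. At 120 h it was 44.6%, 57.6%, 59% and 34.7% in the same order. The effects of the 2 stages differed from each other at 23 genes (0.134%), or at 55 (0.321%) without replicate 3. The median difference over all genes was -0.01 at 96 h and -0.03 at 120 h on the log2 scale.

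The stage effects had 40 genes (0.233%) in common, called in the same direction at 96 h and 120 h, with 19 higher (0.111%) and 21 lower (0.122%) in Del(CBS1-2). These 40 made up 9.69% of the calls at 96 h and 13.03% of those at 120 h. The 2 comparisons had no library in common, but both used the same estimate of spread per gene, from the fit of all libraries. A further 3 genes were called at both stages in opposite directions. Among the 40, the mutant libraries lay on one side of all controls at both stages, as they did for 12.1% of all genes tested. The 40 were picked from these same libraries, so this arrangement adds no support. With only the compared libraries in the fit, 5 genes were called at both stages, 1 of them among the 40. One of the 40, Haglr, lies in HoxD, and 4 carry no gene name beyond a clone or model number. Without replicate 3, 38 genes (0.222%) were called at both stages, 22 higher (0.128%) and 16 lower (0.0933%), and 23 were in both sets. Across all 17148 genes the 96 h and 120 h differences had a Pearson r of 0.21 and a Spearman rho of 0.36, which fell to 0.06 and 0.21 without replicate 3. Replicate 3 of the controls enters at both stages, and genes are not independent, so these correlations are a description.

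**Figure D1:**
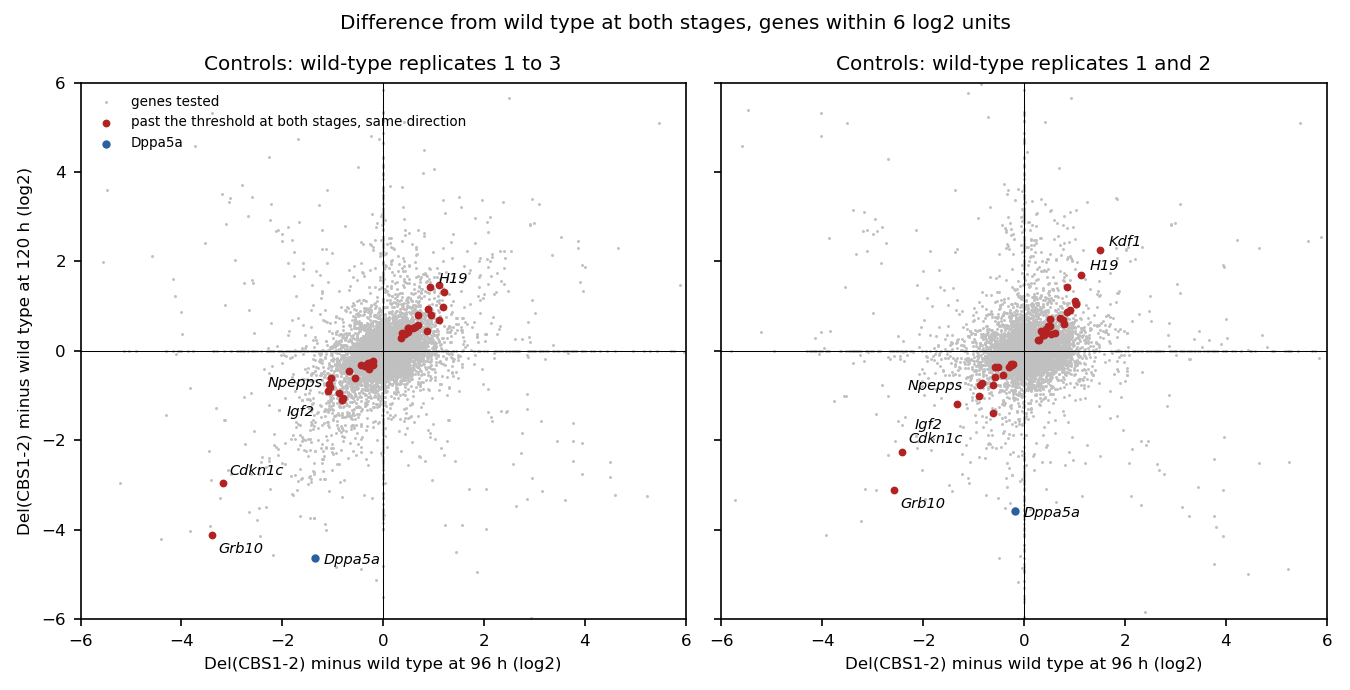
Difference between Del(CBS1-2) and wild type in log2(FPKM + 0.1) at 96 h (horizontal) and 120 h (vertical), with 3 controls on the left and without wild-type replicate 3 on the right. Each grey point is a gene and red points are the 40 and 38 genes called in the same direction at both stages. Grb10 and Cdkn1c lie far to the lower left in both panels, and Dppa5a lies low on the 120 h axis and close to 0 on the 96 h axis when replicate 3 is left out. The 29 and 49 genes beyond 6 log2 units are not drawn.

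The largest falls shared by both stages were those of 3 imprinted genes. Grb10 encodes an adaptor protein that restrains growth-factor signalling and lies at chr11:11930508-12038683 (mm10). At 96 h it stood at 19.95, 19.06 and 105 FPKM in wild-type replicates 1, 2 and 3 and at 3.12 and 3.21 FPKM in Del(CBS1-2). At 120 h the wild-type values were 21.8, 22.1 and 178 FPKM and the mutant values 2.56 and 2.37 FPKM. All 4 mutant libraries were thus below every control, and replicate 3 was far above the other controls. The mean log2 difference was -3.75 ± 0.38 (SE, adjusted p = 1.3e-07), and -2.85 without replicate 3.

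Cdkn1c, an inhibitor of cyclin-dependent kinases, showed the same arrangement. Its values were 2.72, 2.87 and 13.4 FPKM in the controls and 0.466 and 0.413 FPKM in Del(CBS1-2) at 96 h, and 8.61, 9.96 and 39.9 FPKM against 1.77 and 1.96 FPKM at 120 h. The mean log2 difference was -3.06 ± 0.34 (SE, adjusted p = 5.6e-07), and -2.34 without replicate 3. Fignl1, a DNA repair ATPase whose gene lies 121.5 kb from Grb10, was also called at both stages, from 21.5, 22.0 and 30.4 FPKM to 15.6 and 14.7 FPKM at 96 h and from 26.8, 26.9 and 32.4 FPKM to 21.7 and 20.2 FPKM at 120 h. Its mean log2 difference was -0.56.

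Igf2, a fetal growth factor, and H19, a noncoding RNA beside it on chromosome 7, moved in opposite directions. Igf2 was at 222, 262 and 143 FPKM in the controls and at 92.3 and 98.4 FPKM in Del(CBS1-2) at 96 h. At 120 h it was at 375, 364 and 199 FPKM in the controls and at 159 and 164 FPKM in the mutant, a mean log2 difference of -0.99 ± 0.15 (SE, adjusted p = 9.3e-05). H19 was at 154, 136 and 216 FPKM against 315 and 317 FPKM at 96 h, and at 245, 254 and 449 FPKM against 796 and 829 FPKM at 120 h. Its mean log2 difference was 1.18 ± 0.16 (SE, adjusted p = 2.7e-05). Of the 3 controls, replicate 3 lay nearest to the mutant for both genes, and without it the differences widened to -1.27 for Igf2 and 1.41 for H19. Wild-type replicate 4, which was not among these controls, had Igf2 at 101.6 and H19 at 377 FPKM at 96 h. At 120 h it had Igf2 at 116.7 FPKM, below the mutant, and H19 at 439.8 FPKM. Low Igf2 with high H19 thus also occurred in wild type, in a replicate that lay far from the controls over all genes. In the wild-type time course Igf2 was at 203.6 to 315.5 FPKM and H19 at 91.95 to 149.1 FPKM at 96 h. At 120 h they were at 474.2 to 552.3 FPKM and 128.8 to 215.4 FPKM.

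Of 39 imprinted genes tested, 8 rose and 10 fell for the mean of both stages, against 2.48% and 4.11% of all genes, with a median log2 difference of 0.18 (-0.02 over all genes). Without replicate 3, 4 rose and 8 fell, against 2.02% and 2.15%, with a median of -0.01. Beyond the 4 genes above, Igf2r, the receptor that removes Igf2, fell at 120 h from 9.41, 9.64 and 30.4 FPKM to 4.39 and 4.43 FPKM (log2 -1.65 ± 0.26, SE, adjusted p = 0.00055). Dlk1, a membrane protein of fetal growth, fell at 120 h from 14.2, 13.9 and 20.4 FPKM to 4.64 and 5.41 FPKM, also by 1.65 on the log2 scale (adjusted p = 0.0082). Mest, a hydrolase gene transcribed from the paternal copy, rose at 96 h from 48.8, 46.1 and 34.8 FPKM to 104 and 108 FPKM (log2 1.31, adjusted p = 0.0024). At 120 h Mest stood at 938, 974 and 588 FPKM in the controls and 1208 and 1165 FPKM in the mutant, which did not pass (log2 0.54, adjusted p = 0.32). The imprinted genes had no common direction.

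Npepps, which encodes a puromycin-sensitive aminopeptidase on chr11:97205842-97280638, changed with little spread. It was at 30.4, 30.5 and 29.6 FPKM in the controls against 15.9 and 16.8 FPKM in Del(CBS1-2) at 96 h, and at 36.9, 32.9 and 30.8 FPKM against 17.2 and 17.2 FPKM at 120 h. The 3 controls were alike here, replicate 3 included, and the mean log2 difference was -0.92 ± 0.05 (SE, adjusted p = 3.9e-16). The drop was also present against Del(CBS1), with a log2 difference of -0.89 ± 0.05 (adjusted p = 2.5e-14), and against Del(CBS2), at -0.86. Of its 34 tested neighbours within 500 kb, none was called against Del(CBS1) and 2 were called against wild type. Over all genes 0.0525% and 6.6% were called. Smaller shared falls, with mean log2 differences of -0.93 to -0.35, were found for Aff2, Synm, which encodes an intermediate filament protein, Ehd3, a membrane-trafficking ATPase gene, Clcn5, an endosomal chloride transporter gene, Ctns, the lysosomal cystine carrier gene, Trafd1 and Blcap. Of these, Ehd3 and Ctns were also called at both stages without replicate 3.

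**Figure D2:**
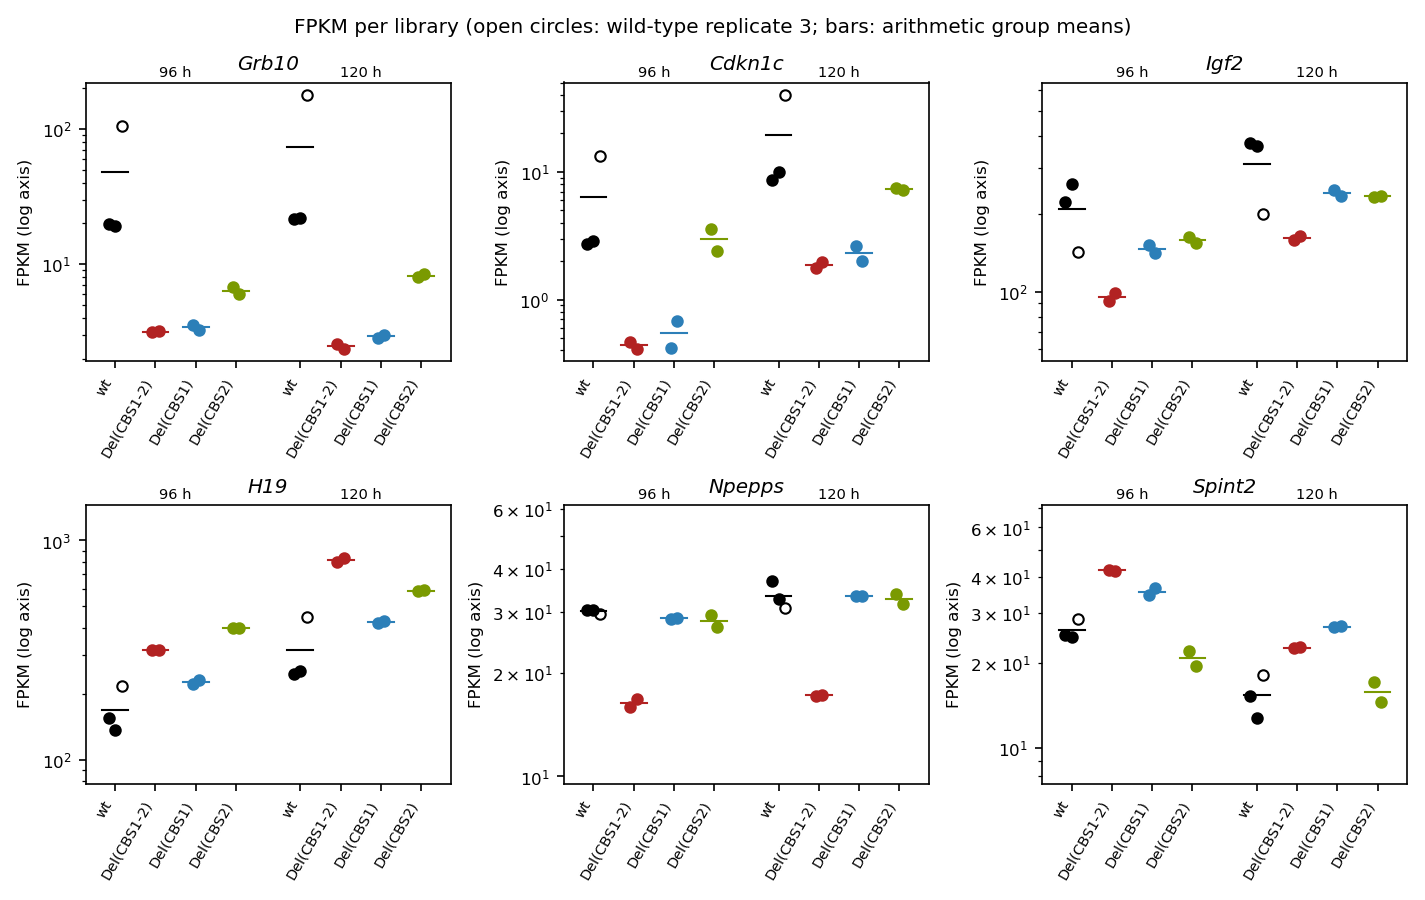
FPKM per library (log axes) of 6 genes called at both stages, in wild type, Del(CBS1-2), Del(CBS1) and Del(CBS2) at 96 h and 120 h. Points are libraries, open circles are wild-type replicate 3, and bars are arithmetic group means without error bars. Grb10 and Cdkn1c are about as low in Del(CBS1) as in Del(CBS1-2), whereas Npepps is low in Del(CBS1-2) and not in either single mutant.

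Among the shared rises, Spint2, a membrane-bound inhibitor of serine proteases, was at 25.1, 24.6 and 28.6 FPKM in the controls and 42.4 and 42.3 FPKM in Del(CBS1-2) at 96 h, and at 15.2, 12.7 and 18.1 FPKM against 22.5 and 22.7 FPKM at 120 h. Its mean log2 difference was 0.63. Espn, an actin-bundling protein of microvilli, rose from 3.28, 3.22 and 1.88 FPKM to 6.22 and 5.75 FPKM at 96 h and from 3.29, 3.05 and 2.85 FPKM to 7.49 and 10.1 FPKM at 120 h, a mean log2 difference of 1.30. Marveld2, a tight-junction protein, rose by a mean log2 difference of 1.09 ± 0.18 (SE, adjusted p = 0.00044) and Cmtm8 by 0.87 ± 0.13 (adjusted p = 7.8e-05). Without replicate 3, the genes called at both stages included Kdf1, St14, which encodes a protease that Spint1 and Spint2 inhibit, and Spint1, with mean log2 differences of 1.88, 1.03 and 0.87. These 3 were named after their values had been seen.

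The other named rises have varied functions. Ddx3x, an RNA helicase of the X chromosome, was at 286, 275 and 189 FPKM in the controls and 396 and 401 FPKM in the mutant at 96 h, and at 319, 312 and 184 FPKM against 461 and 460 FPKM at 120 h. Its mean log2 difference was 0.75, and that of its Y-linked counterpart Ddx3y was 0.91. The 2 genes are closely related in sequence, so reads that map to one place only may count them unevenly. Id2, an inhibitor of basic helix-loop-helix factors, went from 9.22, 10.4 and 7.77 FPKM to 14.1 and 14.2 FPKM at 96 h and from 31.9, 35.4 and 28.2 FPKM to 46.0 and 46.5 FPKM at 120 h (mean log2 0.59). Id2 was called at both stages only with replicate 3 included, as were Ttyh1, Rtl8b and the potassium-channel gene Kcnj3, which is listed at 0 in 1 control. Dctpp1, a nucleotide-hydrolysing enzyme, had a mean log2 difference of 0.55 and lies in the chromosome 7 block described further on.

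Dppa5a, a small RNA-binding protein of embryonic stem cells, lies at chr9:78367052-78368177. At 96 h it was at 19.4, 20.5 and 225 FPKM in wild type and at 19.4 and 15.9 FPKM in Del(CBS1-2). At 120 h it was at 27.3, 26.9 and 239 FPKM in wild type and at 2.63 and 1.78 FPKM in Del(CBS1-2). The mutant libraries thus overlapped the range of replicates 1 and 2 at 96 h and lay below every control at 120 h. The log2 difference at 120 h was -4.63 ± 0.75 (SE, adjusted p = 0.00069) and -3.58 without replicate 3 (adjusted p = 2.4e-05). At 96 h it was -1.35 ± 0.75 (adjusted p = 0.42), and -0.18 without replicate 3 (adjusted p = 1).

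The mean of both stages passed the threshold for Dppa5a (log2 -2.99, adjusted p = 0.00078; without replicate 3 -1.88, adjusted p = 0.0012), yet this mean rests on the 120 h libraries. The difference between the stage effects, -3.28, did not pass with 3 controls (adjusted p = 0.28) and passed without replicate 3 (-3.40, adjusted p = 0.011). Dppa5a is therefore not a gene changed at both stages by the test. In Del(CBS1) it was at 7.15 and 5.30 FPKM at 96 h and at 0.912 and 2.94 FPKM at 120 h, and in Del(CBS2) at 34.7 and 31.6 FPKM and at 51.0 and 58.2 FPKM. Low levels of Dppa5a also occurred elsewhere, at 3.66 to 4.79 FPKM in Del(d1-d4) at 120 h. Wild type at 144 h was at 3.37 to 6.11 FPKM, but at 65.4 to 73.1 FPKM in the time course. At 120 h the wild-type time course was at 30.5 to 53.4 FPKM and replicate 4 at 40.2 FPKM. For Dppa5a the direct contrast of Del(CBS1-2) with Del(CBS1) gave a log2 difference of 0.93 (adjusted p = 1), and that with Del(CBS2) gave -2.75 (adjusted p = 0.0032).

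For the other pluripotency genes the stages were also tested apart. None of 31 tested genes of this list was called at 96 h in the limma fit, with or without replicate 3 (unadjusted p under 0.05 for 1 higher and 9 lower with 3 controls), and 12 fell at 120 h (0.991% of all genes fell there), or 11 without replicate 3 (0.98%). The median log2 difference over the list was -1.05 at 96 h and -2.02 at 120 h, and -0.10 and -1.20 without replicate 3, beside medians of -0.01 and -0.03 over all genes with 3 controls. For the mean of both stages 16 fell (4.11% of all genes did), and 10 without replicate 3 (2.15%). The contrast between the stage effects called 0 of the 31 genes with 3 controls in limma and 3, all lower, without replicate 3, so most of these genes were not shown to differ between stages. Replicate 3 held the highest of the 5 values in 26 of the 31 genes at 96 h and in 29 at 120 h. In bulk libraries fewer cells of a type and less RNA per cell cannot be told apart.

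Pou5f1, the transcription factor of pluripotent and early epiblast cells, was at 27.2, 28.7 and 80.9 FPKM in the controls and 41.5 and 38.9 FPKM in Del(CBS1-2) at 96 h. At 120 h it was at 4.92, 4.95 and 58.6 FPKM against 0.792 and 0.812 FPKM (log2 -3.66, adjusted p = 0.00059). Its mutant values were thus above replicates 1 and 2 at the first stage and below all controls at the second. Nanog, another factor of this network, was at 1.75, 1.51 and 11.5 FPKM against 0.198 and 0.277 FPKM at 120 h (log2 -3.28, adjusted p = 0.013). Zfp42, a zinc-finger gene used as a marker of naive cells, was at 1.47, 1.20 and 11.8 FPKM against 0.111 and 0.112 FPKM at 120 h (log2 -3.77, adjusted p = 0.0094). The level of Zfp42 at 96 h, 0.765, 0.713 and 11.7 FPKM against 0.226 and 0.294 FPKM, was also below the controls but did not pass (adjusted p = 0.08). Over the 31 genes the summed level at 120 h was 102.5, 100.9 and 508.7 FPKM in the controls, 63.84 and 61.58 FPKM in Del(CBS1-2), 62.48 and 62.33 FPKM in Del(CBS1) and 139 and 149.4 FPKM in Del(CBS2).

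**Figure D3:**
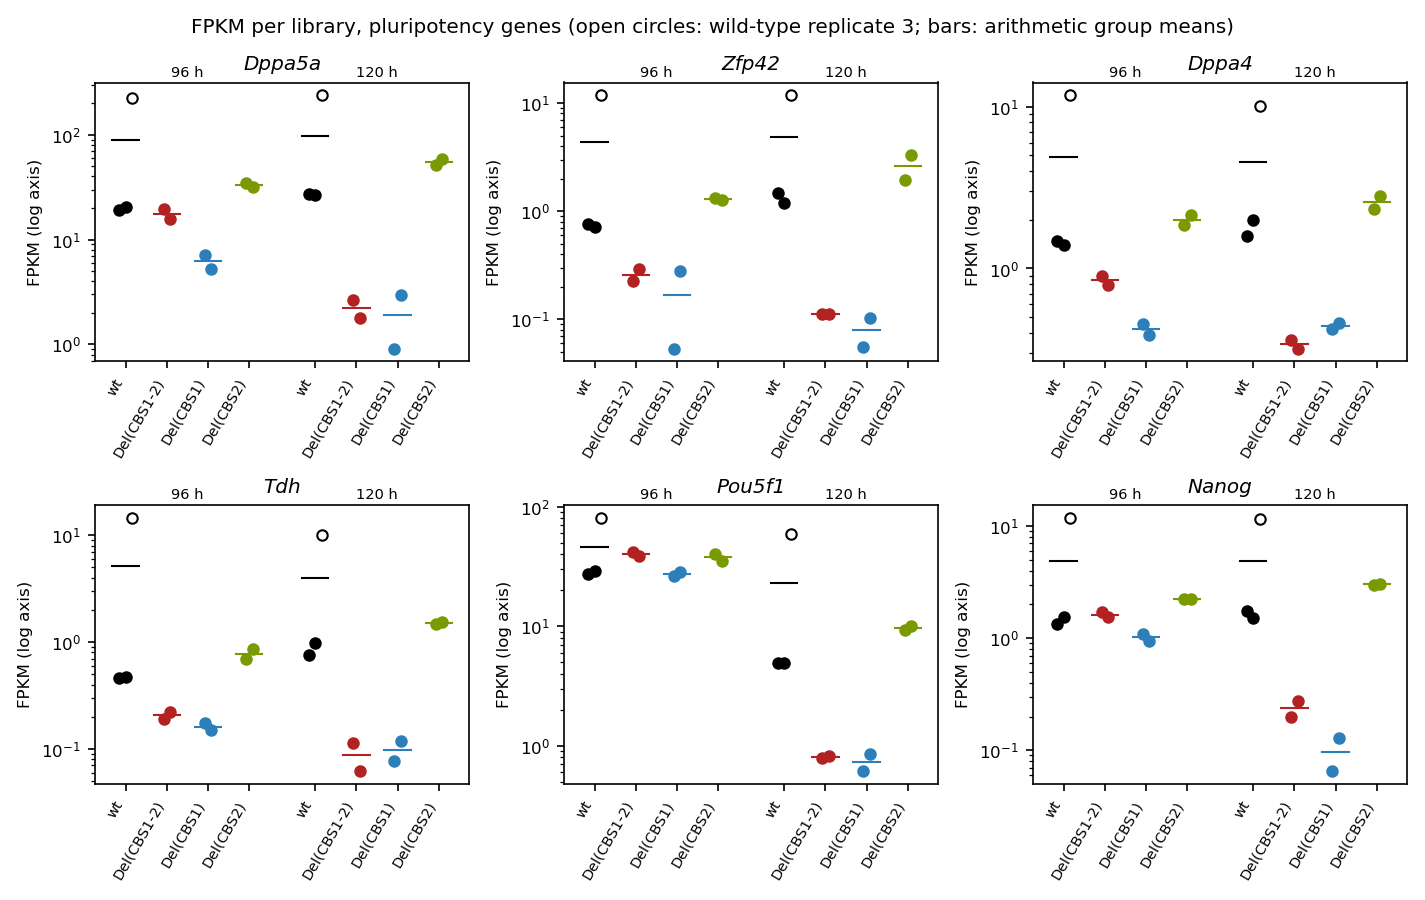
FPKM per library (log axes) of 6 pluripotency genes in wild type, Del(CBS1-2), Del(CBS1) and Del(CBS2) at 96 h and 120 h. Points are libraries, open circles are wild-type replicate 3, and bars are arithmetic group means without error bars. At 120 h both Del(CBS1-2) libraries are below all 3 controls for each gene, and replicate 3 is the highest point in every panel at both stages.

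The genes whose levels followed Dppa5a most closely over the means of all 30 groups of the series were Hspb1, a small heat-shock protein gene (Pearson r 0.971), Zfp42 (0.967), Gtsf1l (0.962), Dppa2 (0.962) and Triml2 (0.955), and groups of one cell line are not independent. Hspb1 fell at 120 h from 2.17, 1.65 and 19.6 FPKM to 0.0947 and 0.263 FPKM (log2 -4.01, adjusted p = 0.002). Of 10 genes of the list for two-cell-like and germline states, 5 fell at 120 h with and without replicate 3, beside 0.991% and 0.98% of all genes. They were Tex19.1, Gm4340 and 3 Zscan4 copies, which are nearly identical in sequence and whose counts are uncertain. Their levels were low, with Gm4340 at 0.420, 0.339 and 2.93 FPKM against 0.0548 and 0.0776 FPKM.

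Endothelial genes rose at 120 h. Of 13 tested, 9 were called higher (0.799% of all genes were) and none lower, or 8 without replicate 3 (1.05%), and the median log2 difference was 1.92, or 2.17 without replicate 3. At 96 h none was called in either limma fit, 0 with 3 controls and 1 without replicate 3 had an unadjusted p under 0.05, and the median was 0.04. Etv2, the factor that starts the endothelial and blood programme, was at 0.944, 1.11 and 0.75 FPKM in the controls and at 3.37 and 3.80 FPKM in Del(CBS1-2) (log2 1.84, adjusted p = 0.0032). Kdr, a receptor for vascular endothelial growth factor, was at 0.204, 0.229 and 0.564 FPKM against 2.63 and 3.07 FPKM (log2 2.86, adjusted p = 0.048). Cdh5, the cadherin of endothelial junctions, was at 0.0987, 0.107 and 0.133 FPKM against 1.38 and 1.64 FPKM (log2 2.92, adjusted p = 0.015), and Sox18 was at 0.172, 0.113 and 0.241 FPKM against 1.5 and 2.16 FPKM. Egfl7, Cd34, Tie1, Plvap and Emcn were the other called members, and Egfl7 and Tie1 were not called without replicate 3. The levels in Del(CBS1) at 120 h were similar, with Kdr at 2.50 and 3.53 FPKM, while the 2 Del(CBS2) libraries were unlike each other, with Kdr at 2.69 and 0.478 FPKM.

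Of 19 endoderm and notochord genes tested, 5 rose at 120 h with 3 controls (0.799% of all genes did) and 8 without replicate 3 (1.05%), and none fell. The median log2 difference was 1.42, or 2.00 without replicate 3. At 96 h none was called in either limma fit, 3 had an unadjusted p under 0.05 with 3 controls, all higher, and the median was 0.55, with both mutant libraries above all controls for 11 of the 19. The contrast between the stage effects called none of these genes and none of the 13 endothelial genes in either fit. Foxa2, a pioneer factor of endoderm and notochord, was at 0.264, 0.258 and 1.09 FPKM against 3.03 and 3.14 FPKM (log2 2.57, adjusted p = 0.017). Cldn6, a tight-junction claudin, was at 3.77, 3.43 and 12.5 FPKM against 24.7 and 29.1 FPKM (log2 2.28, adjusted p = 0.019). Foxa1, Krt19 and the epithelial adhesion gene Epcam were the others, and Epcam went from 4.16, 3.69 and 14.1 FPKM to 16 and 17 FPKM. Replicate 3 lay between the other controls and the mutant for Foxa2, Cldn6, Krt19 and Epcam. The summed level of the 19 genes was 41.6, 40.3 and 243 FPKM in the controls and 150 and 157 FPKM in Del(CBS1-2), so that by the sum replicate 3 exceeded the mutant. Nepn, which marks gut endoderm, rose most among annotated genes not listed at 0, from 0.474, 0.268 and 2.12 FPKM to 8.53 and 11.6 FPKM (log2 3.69, adjusted p = 0.027). Stembryos at 120 h had been selected for elongation, and the part of that selection in these levels was not tested.

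**Figure D4:**
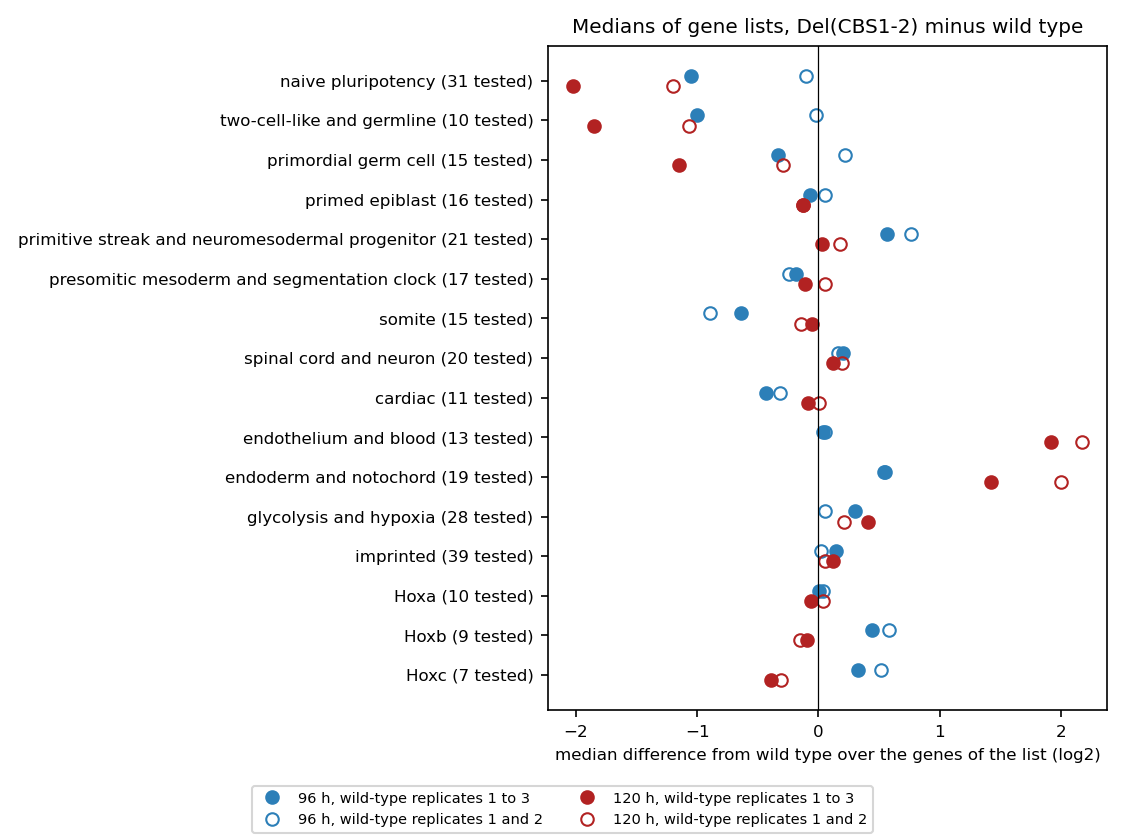
Median difference between Del(CBS1-2) and wild type in log2(FPKM + 0.1) over the tested genes of 16 lists, at 96 h (blue) and 120 h (red), with 3 controls (filled) and without wild-type replicate 3 (open). Naive pluripotency has its lowest values at 120 h and moves towards 0 at 96 h when replicate 3 is left out, and the endothelial and endodermal lists are well above 0 at 120 h in both fits.

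At 96 h some members of the lists for mesoderm and its signals were called, beside 2.41% of all genes with 3 controls and 3.38% without replicate 3. Of 16 Wnt target and feedback genes 1 was called, or 2 without replicate 3. In either limma fit 8 of them were higher and 1 lower at an unadjusted p under 0.05. Of 17 genes of the presomitic mesoderm and segmentation clock 3 were called in both fits, 1 higher and 2 lower, with Nkd1 in both lists. At an unadjusted limma p under 0.05, 1 of the 17 was higher and 7 lower with 3 controls. Without replicate 3 these numbers were 2 and 5. Of 21 primitive streak and neuromesodermal progenitor genes 1 was called, and none without replicate 3. An unadjusted p under 0.05 in limma was found for 9 higher and 1 lower with 3 controls, and for 12 higher and 1 lower without replicate 3. Wnt8a, a Wnt ligand of the primitive streak, was at 26.5, 29.3 and 23.1 FPKM in the controls and at 53.9 and 55.9 FPKM in Del(CBS1-2) (log2 1.06, adjusted p = 0.029, and 0.073 without replicate 3). Nkd1, a feedback inhibitor induced by Wnt signalling, rose from 37.8, 43.6 and 40.7 FPKM to 61.2 and 57.7 FPKM (log2 0.55, adjusted p = 0.012). Sox3, an early neural factor, rose from 1.66, 1.78 and 1.84 FPKM to 4.47 and 4.19 FPKM (log2 1.25). Lfng, the glycosyltransferase that tunes Notch signalling in the clock, fell from 68.7, 70.6 and 55.3 FPKM to 35.4 and 32.8 FPKM (log2 -0.92, adjusted p = 0.019). Fgf18, a fibroblast growth factor of the mesoderm, fell from 12.2, 14.9 and 9.11 FPKM to 3.06 and 2.02 FPKM (log2 -2.20, adjusted p = 0.0078).

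None of 15 somite genes was called at 96 h in the limma fit with 3 controls, although 7 had an unadjusted p under 0.05, all lower, and the median log2 difference was -0.64. Without replicate 3, Tbx18, Pax3, Foxc2 and Meox1 fell (1.45% of all genes fell) and the median was -0.89. The summed level of the list was 235.5, 218 and 134.5 FPKM in the controls and 109.2 and 94.2 FPKM in Del(CBS1-2), so replicate 3 again lay between. At 120 h the median was -0.05. The list of glycolysis and hypoxia genes, 28 tested, had 8 rises for the mean of both stages (2.48% of all genes rose) and 2 without replicate 3 (2.02%). The median log2 difference of the list was 0.40, and 0.14 without replicate 3. Ldha, lactate dehydrogenase, was low in replicate 3, with 1440, 1396 and 755 FPKM in the controls and 1500 and 1444 FPKM in the mutant at 96 h. Only the glucose transporters Slc2a1 and Slc2a3 of this list rose at 96 h in both fits, by 0.93 and 0.82 on the log2 scale with 3 controls.

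Within the Hox clusters outside HoxD, none of 10 Hoxa, 9 Hoxb and 7 Hoxc genes was called at either stage or for the mean in the limma fit, and 0 had an unadjusted p under 0.05 with 3 controls. In HoxD, which the deletions target, Hoxd9 was at 0.736, 1.05 and 5.46 FPKM in the controls and at 7.27 and 6.65 FPKM in the mutant at 96 h (log2 2.01, adjusted p = 0.03), and Hoxd1 and Hoxd3 fell by 1.71 and 1.12 on the log2 scale. Of 17 genes for CTCF, cohesin and their regulators, none was called at either stage by limma, with 5 at 96 h and 2 at 120 h at an unadjusted p under 0.05, and 1, the cohesin subunit gene Stag1, fell for the mean (4.11% of all genes did) and did not pass without replicate 3. Of 16 tested genes in the flanks of HoxD, none was called at either stage, with 4 lower at 96 h and 2 higher and 1 lower at 120 h at an unadjusted p under 0.05, and 2 fell for the mean of both stages, neither of them without replicate 3.

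The direct contrast with Del(CBS1), the line from which Del(CBS1-2) was made, called 9 genes for the mean of both stages (0.0525%), 5 higher and 4 lower, against 21 (0.122%) without replicate 3 in the fit. That with Del(CBS2) called 945 (5.51%), 499 higher and 446 lower, or 1417 (8.26%). Of the 40 genes shared by both stages, 1 was called against Del(CBS1), Npepps, and 36 against Del(CBS2). In the fit without replicate 3, 5 of the 40 were called against Del(CBS1), namely H19, Igf2, Kcnj3, Npepps and Rtl8b. Against Del(CBS2) that fit called 38 of them. The 40 were picked with the same Del(CBS1-2) libraries that enter these contrasts, so these counts are a description and no separate support. The values in Del(CBS1) beside those in Del(CBS1-2), against the same controls, were a mean log2 difference of -3.58 and -3.75 for Grb10 and of -2.80 and -3.06 for Cdkn1c. In Del(CBS2) the differences from the same controls were -2.41 for Grb10 and -0.85 for Cdkn1c. At 120 h Grb10 was also low elsewhere, at 1.81 to 2.25 FPKM in Del(CBS4) and 2.21 to 2.485 FPKM in Ins(2xCBS-d4d8). It was at 63.8 to 65.2 FPKM in Del(d1-d4), 109 to 113 FPKM in Del(sub-TAD1) and 162 to 168 FPKM in Del(CBS1-5). Cdkn1c at 120 h was at 2.97 to 3.94 FPKM in Ins(2xCBS-d4d8) and 7.11 to 8.48 FPKM in Del(CBS4). It was at 38.4 to 56.8 FPKM in the other lines just named.

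Besides Npepps, the contrast with Del(CBS1) called Bhlhe40, a circadian and hypoxia-responsive repressor (log2 1.00), Ndrg2 (1.09) and the glutathione transferase gene Gstp1 (0.27) as higher. Mtdh was lower by 0.77 on the log2 scale (adjusted p = 0.027), with 23.4 and 22.8 FPKM in Del(CBS1-2), 60.2 and 59.3 FPKM in Del(CBS1) and 45.3, 61.3 and 71.1 FPKM in wild type at 96 h. At 120 h Mtdh was much nearer, at 44.7 and 48.5 FPKM in Del(CBS1-2), 54.4 and 50.3 FPKM in Del(CBS1) and 54.9, 56.2 and 69.5 FPKM in wild type. The largest falls against Del(CBS2) included Dppa5a and Zfp42. The 5 largest rises were of genes listed at 0 in some Del(CBS2) libraries.

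A run of 44 adjacent genes on chromosome 7, spanning 0.958 Mb around Sephs2, a selenophosphate synthetase gene, stood out once differences had been ordered along the chromosomes, so it was chosen after its values had been seen and is given as a description. The median log2 difference of the block for the mean of both stages was 0.31, 41 of the 44 genes were above 0, and 21 were called higher and none lower. Without replicate 3 the median was 0.20 and 11 were called higher. Of all genes, 2.48% and 2.02% were called higher for this mean with and without replicate 3. The medians at 96 h and 120 h were 0.39 and 0.23, with 14 and 3 called higher, beside 1.29% and 0.799% of all genes. The 20 tested genes on either side had medians of 0.02 and -0.08 for the mean of both stages, with none called by limma for that mean. At 96 h, 1 gene of the flank before the block was called lower with 3 controls, and 1 of the flank after it without replicate 3.

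Without replicate 3 the difference from wild type over the block was smaller at 120 h, with a median of 0.09 and 34 of 44 genes above 0, than at 96 h, with a median of 0.29 and 42 above 0, and the difference between these stage medians was not tested. Relative to the mean of all 61 libraries, the median log2 level of the block was 0.19 to 0.24 in the 4 Del(CBS1-2) libraries and 0.13 to 0.25 in those of Del(CBS1). It was -0.49 to -0.23 in those of Del(CBS2). The controls were at -0.20, -0.13 and -0.43 at 96 h and at 0.13, 0.10 and -0.31 at 120 h, with replicate 3 lowest at each stage. The median difference between Del(CBS1-2) and Del(CBS1) over the block was 0.00 with no gene called, and that between Del(CBS1-2) and Del(CBS2) was 0.54 with 28 called higher (2.91% of all genes). Among 11735 windows of 20 adjacent genes, the highest median for the mean of both stages, 0.38, lay in this block, as did the highest without replicate 3 (0.22).

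**Figure D5:**
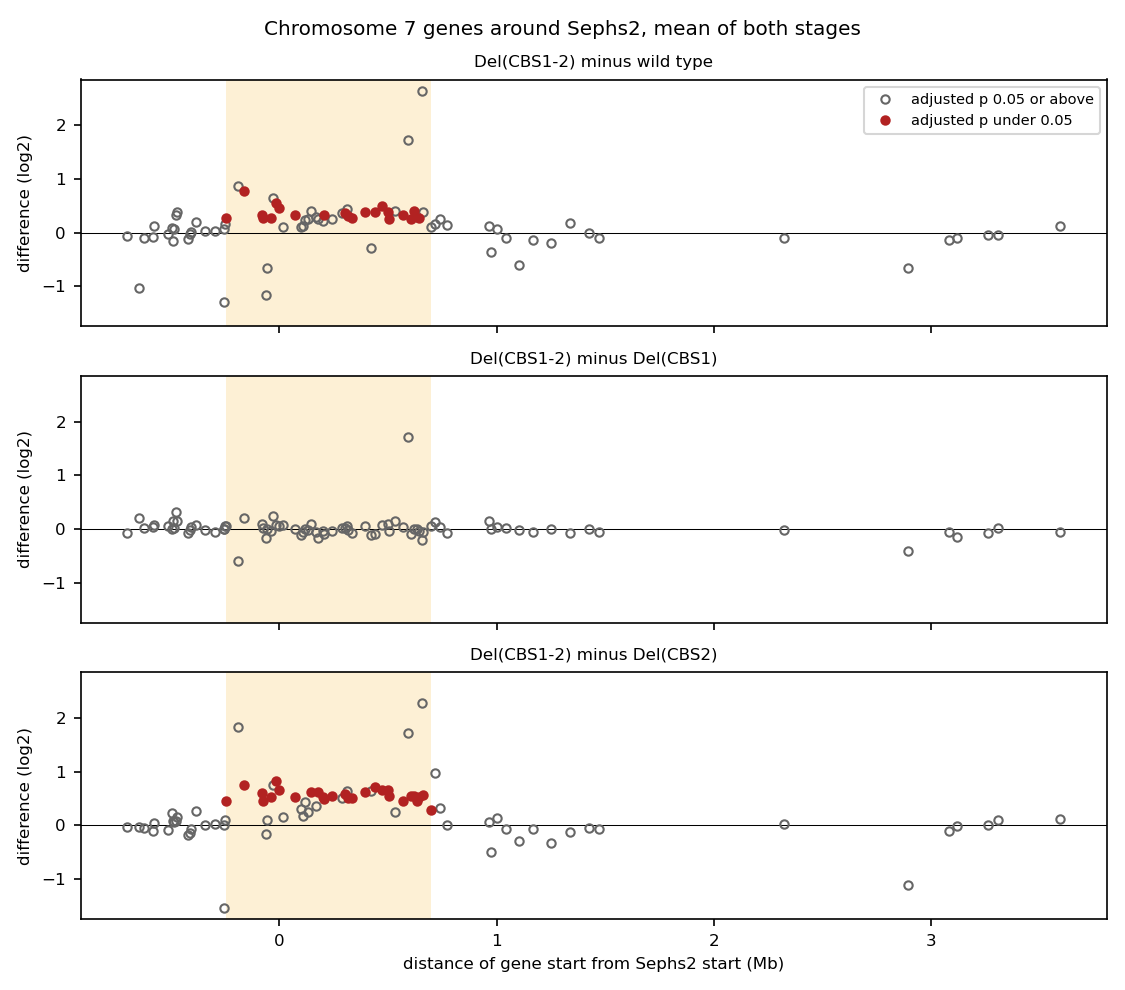
Log2 difference for the mean of both stages of genes on chromosome 7, plotted by the distance of the gene start from that of Sephs2 in Mb, for Del(CBS1-2) against wild type, Del(CBS1) and Del(CBS2). Filled points passed an adjusted p of 0.05 and the shaded span is the block of 44 genes. The points in the block lie above 0 against wild type and further above 0 against Del(CBS2), and around 0 against Del(CBS1).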

How the data were processed

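RNA of pooled stembryos was sequenced as stranded poly-A libraries. Per the study's methods and the labels' processing notes, reads were trimmed with cutadapt 1.16, mapped with STAR 2.7.7a to mm10, and uniquely mapped reads were turned into FPKM by the authors with Cufflinks 2.2.1 on an annotation based on Ensembl. The deposited FPKM values are scaled to mapped fragments of each library and hold no raw counts. Their low values fall on steps that give relative depth, and 74.6 to 78.7% of values came out whole within 0.02 of a read.

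Rows of 1 gene on several lines were summed. Genes with a mean of at least 1 FPKM in at least 1 group were kept, and log2(FPKM + 0.1) was fitted with limma 3.58.1 in R 4.3.3 over all 61 libraries, with 1 coefficient per group, 31 residual degrees of freedom, two-sided tests and Benjamini-Hochberg adjustment over 17148 genes at 0.05. Fold changes on this scale understate those of low genes. The contrasts were Del(CBS1-2) minus wild type at 96 h, at 120 h, their mean and their difference, and Del(CBS1-2) minus Del(CBS1) and minus Del(CBS2) for the mean of both stages. Replicates are described as separate biological samples of a line, so p-values measure the spread between these samples and not between clones. A gene at exactly 0 can be a failed estimate of Cufflinks and is called listed at 0. Alternatives were another pseudocount, other filters and scalings, other control sets, fits of fewer libraries, each replicate left out and a replicate block. The scripts were checked on simulated data.

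The genes and lists were chosen with earlier results of these data known. Named genes are Dppa5a, the 12 largest rises and falls shared by both stages among annotated genes outside HoxD, the 5 largest in each direction per stage, for the stage difference and per direct contrast, and up to 4 members per list with the smallest p for the mean. Other list members are named because they passed or illustrate a list, after their values were seen. No authors' comparison tables and no sequences were used.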

Additional observations from a re-analysis of the deposited data

Results flagged for a closer look

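For the 13 genes below, of 23 in all, the limma contrast between the stage effects passed, so that the difference between Del(CBS1-2) and wild type was not the same at 96 h and 120 h. Each value is a difference of log2 differences, positive where Del(CBS1-2) moved further up at the later stage. The 23 genes (0.134% of 17148) that passed were 7 with a positive and 16 with a negative value, and 55 passed without wild-type replicate 3. The 3 genes called at both stages in opposite directions were Trib2, Abat and Ccdc3. Trib2 and Abat, picked out after their values were seen, crossed from above to below the controls. Trib2, a pseudokinase gene, was at 3.51, 3.58 and 2.94 FPKM in wild type and 4.51 and 4.55 FPKM in the mutant at 96 h, and at 10.9, 8.69 and 9.49 FPKM against 7.56 and 6.96 FPKM at 120 h, with a difference of -0.84. Abat, which encodes the enzyme that degrades the transmitter GABA, was at 2.77, 2.51 and 2.61 FPKM against 3.69 and 3.57 FPKM and then at 5.57, 5.96 and 5.74 FPKM against 4.42 and 3.88 FPKM, with a difference of -0.92.

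Cyp26b1, which degrades retinoic acid, had a difference of 1.63 and was at 0.533, 0.681 and 0.487 FPKM in wild type and 1.76 and 1.98 FPKM in the mutant at 120 h. The difference was -2.02 for Ccdc3, -2.11 for Cpxm2, -1.95 for Slc4a5 and -1.80 for Klf14. It was 1.71 for Tmem200b, 0.56 for Dse and 0.41 for Gstp1. Cyp26b1 and Slc4a5 did not pass without replicate 3 (adjusted p = 0.051 and 0.14). Values of -6.01 for Arhgap9, 5.14 for Myl3 and 13.63 for Scarna17 rest on libraries listed at 0. Arhgap9 was listed at 0 in all controls at 96 h and at 1.58 and 1.30 FPKM in the mutant, and at 0.777, 0.747 and 0 FPKM against 0 and 0 at 120 h. Myl3 was listed at 0 in all controls at 120 h and at 2.91 and 4.03 FPKM in the mutant. Scarna17 was at 379, 0 and 0 FPKM in the controls and 0 and 0 in the mutant at 96 h, and at 0 in all controls and at 78.3 and 84.3 FPKM in the mutant at 120 h.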

How the results depend on the processing

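Numbers of genes called changed most with which libraries entered. With only the compared libraries in the fit, 230 genes were called at 96 h, 87 at 120 h, 454 for the mean, 72 for the stage difference, 5 at both stages, 67 against Del(CBS1) and 3064 against Del(CBS2). Of these 5 at both stages only 1 was among the 40 of the report. The same fit without wild-type replicate 3 gave 1818 at 96 h, 892 at 120 h, 2374 for the mean, 772 for the stage difference and 258 at both stages, 24 of them among the 40. With wild-type replicates 1 to 4, 773 were called at 96 h, 2543 for the mean and 64 at both stages, and with the time-course controls added 886 at 96 h and 5948 for the mean. Without replicate 3 in the fit of all libraries, 715 were called for the mean and 55 for the stage difference. A pseudocount of 1 gave 37 for the stage difference and leaving out mitochondrial transcripts gave 11, and no filter gave 27 against Del(CBS1).

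Leaving out 1 library at a time gave 101 to 517 genes at 96 h, 46 to 427 at 120 h, 387 to 1413 for the mean, 17 to 54 for the stage difference, 10 to 54 at both stages, 10 to 26 against Del(CBS1) and 478 to 617 against Del(CBS2). Without Del(CBS1-2) replicate 1 or 2, the lone mutant library is assumed to vary like the other groups. This gave 101 and 123 at 96 h and 55 and 46 at 120 h. The mean had 465 and 502 without the 96 h libraries and 540 and 387 without those at 120 h, against 671 without the 96 h and 740 without the 120 h library of wild-type replicate 3. Genes at both stages numbered 14, 17, 13 and 10 without each mutant library and 24 without the 120 h library of replicate 3. The 54 for the stage difference came without the 96 h library of replicate 3.

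Replicate numbers did not pair the samples: deviations of same-numbered libraries correlated at -0.10 and 0.12 with wild type, -0.20 and -0.11 with Del(CBS1) and -0.02 and 0.01 with Del(CBS2). With a replicate block, 504 were called at 96 h, 305 at 120 h, 631 for the mean, 56 for the stage difference, 29 at both stages, 26 against Del(CBS1) and 1258 against Del(CBS2), and with the numbers of Del(CBS1) crossed in the block, 27. For genes named singly, 3759 of 4470 alternative values kept their side of the threshold, 582 no longer passed and 129 newly passed. Where the main or the alternative value passed, 0 reversed direction. A change of direction where neither value passed was counted among the 3759. The causes were not tested. With 2 mutant libraries per stage from 1 clone, clone and deletion cannot be told apart, and FPKM below about 1 rest on few reads.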

Other observations

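Some of the largest differences at a single stage were of genes that are listed at 0 in whole groups. Nit2, an amidase gene, was at 25.6, 26.7 and 35.7 FPKM in wild type at 120 h and listed at 0 in both Del(CBS1-2) libraries, and at 96 h it was at 0, 31.4 and 49.5 FPKM against 0 and 0. Rmnd5b was at 6.3, 7 and 10.7 FPKM against 0 and 0 at 96 h, and Nr1d1, a circadian repressor, at 1.63, 1.67 and 2.38 FPKM against 0 and 0. The mitochondrial gene mt-Nd4l was at 279, 266 and 429 FPKM in wild type and listed at 0 in both mutant libraries at 120 h. Lcorl was listed at 0 in all controls at 120 h and at 1.95 and 1.83 FPKM in the mutant. A value of 0 in these files can be a failed estimate, and no fold change is given for them.

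Among the 20 chromosomes with at least 100 tested genes, the median log2 difference for the mean of both stages was -0.03 to -0.00, and the share of genes called was 4.98 to 9.38%, or 2.21 to 6.18% without replicate 3. The Y chromosome, with 14 tested genes, had a median of 0.35 with 4 called, and 0.10 without replicate 3. A region of chromosome 14 around Gm2260, Gm2274 and Anxa11 was noticed after its values were seen. There 10 of 15 neighbouring genes were called for the mean, and 3 without replicate 3. Over all genes 6.6% and 4.17% were called. The region holds near-identical gene copies, so these counts are uncertain.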
